A study of Homo sapiens with 6 samples.

Results

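The homeobox members described here were the 111 genes, among 26485 genes in the count tables, whose symbol is that of a HOX, PAX, LHX, NKX, DLX, EN, OTX, IRX, MSX, GBX, EMX, PITX, MEIS, PBX, ALX or sine oculis family gene. They were chosen by a name rule that uses no measured value, though with earlier results of these data known. They comprised 39 HOX genes and 72 genes outside the HOX clusters. RNA sequencing was done on AF22, a human neural stem cell line, in 3 libraries labelled BMI1/COMMD3-BMI1 KD (knockdown) and 3 libraries labelled shControl (control). Both groups are the same 1 cell line, the control is labelled WT, and the labels give neither the short hairpin sequences nor the time after knockdown. Nothing in the labels says that the 3 libraries of a group came from separate cultures, so a p-value here reflects only how these libraries vary, a spread that could be technical.

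Homeobox genes encode transcription factors that give cells of the embryo their position. In the neural tube, OTX2 and EMX2 mark the forebrain side, GBX2, EN2, EN1 and PAX5 mark the boundary of midbrain and hindbrain and its neighbourhood, and HOX genes mark hindbrain and spinal cord, the later-numbered genes lying more towards the tail. BMI1 is a core subunit of Polycomb repressive complex PRC1, and HOX and other developmental homeobox genes are the textbook targets that Polycomb complexes keep silent. COMMD3-BMI1 is a read-through transcript that joins COMMD3 to BMI1, the gene next to it. The question addressed was which members are expressed or silent in these cells, and whether silent members gain reads after the knockdown.

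Total counts per library were 4962745 to 9640349 in knockdown and 5496683 to 6870122 in control. BMI1 stood at 39.9, 21.5 and 26.2 CPM (counts per 1000000 counts of the library, after scaling) in knockdown libraries 1 to 3, against 85.1, 90.0 and 87.4 CPM in control libraries, and the groups did not overlap. Knockdown library 2 stood apart on the first principal component of all tested genes (40.2, the other 5 libraries between -25.5 and 11.5). Of 12 neural stem cell markers 11 had counts and HES5 was at 0; their summed level was 3326 to 4523 CPM in knockdown and 3944 to 4200 CPM in control. The neuron markers RBFOX3 and ELAVL4 and the pluripotency markers NANOG and ZFP42 were at 0 in all 6 libraries. Others of both lists were expressed. In control, the neuron markers MAP2, NEFM and TUBB3 averaged 489, 221 and 154 CPM. SYP, DCX and STMN2 averaged 2.57, 0.528 and 0.0962 CPM. The pluripotency markers LIN28A, DPPA4 and POU5F1 averaged 268, 143 and 76.1 CPM in control. Summed levels were 693 to 901 CPM in knockdown and 808 to 902 CPM in control for 8 neuron markers, with NEFM called lower in the fit with the library number as a block (edgeR adjusted p = 0.0305). They were 482 to 600 CPM and 408 to 561 CPM for 5 pluripotency markers, and 307 to 327 CPM and 288 to 308 CPM for 5 astroglia markers, in knockdown and control in that order. The astroglia sum came almost wholly from SLC1A3 and S100B, which averaged 215 and 81.1 CPM in control. AQP4 averaged 2.07 CPM in control. GFAP and ALDH1L1 had 0 counts in control, and 1 and 2 counts in all in knockdown.

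Promoter sequences are shown for 4 members that the results below single out, though no result below uses the sequences. They are MSX1, the member called higher in knockdown with the library number as a block, GBX2 and EN2, the members of highest level per kb in control, and OTX2, which had no read. Each is the 250 bases before the gene's start in the RefSeq promoter table (GRCh38.p14), written 5′ to 3′ on the gene's strand, with CpG dinucleotides in capitals. The windows are chr4:4859415-4859664 (+ strand) for MSX1, chr2:236168387-236168636 (- strand) for GBX2, chr7:155457879-155458128 (+ strand) for EN2 and chr14:56810480-56810729 (- strand) for OTX2.
MSX1: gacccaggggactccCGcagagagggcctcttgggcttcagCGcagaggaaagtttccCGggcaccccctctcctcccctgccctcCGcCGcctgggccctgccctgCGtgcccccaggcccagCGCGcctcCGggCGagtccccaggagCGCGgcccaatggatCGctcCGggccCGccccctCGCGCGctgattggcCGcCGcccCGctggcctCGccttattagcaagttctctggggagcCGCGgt
GBX2: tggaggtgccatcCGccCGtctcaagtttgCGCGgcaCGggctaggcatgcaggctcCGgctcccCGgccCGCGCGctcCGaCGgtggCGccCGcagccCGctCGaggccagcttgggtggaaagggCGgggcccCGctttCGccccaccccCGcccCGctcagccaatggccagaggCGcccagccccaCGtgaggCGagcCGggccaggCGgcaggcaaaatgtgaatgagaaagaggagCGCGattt
EN2: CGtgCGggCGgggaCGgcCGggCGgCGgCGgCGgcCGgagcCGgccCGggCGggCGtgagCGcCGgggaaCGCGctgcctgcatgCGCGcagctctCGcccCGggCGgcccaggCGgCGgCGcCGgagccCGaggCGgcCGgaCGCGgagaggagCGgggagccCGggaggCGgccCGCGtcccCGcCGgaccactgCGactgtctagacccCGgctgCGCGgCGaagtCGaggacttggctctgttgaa
OTX2: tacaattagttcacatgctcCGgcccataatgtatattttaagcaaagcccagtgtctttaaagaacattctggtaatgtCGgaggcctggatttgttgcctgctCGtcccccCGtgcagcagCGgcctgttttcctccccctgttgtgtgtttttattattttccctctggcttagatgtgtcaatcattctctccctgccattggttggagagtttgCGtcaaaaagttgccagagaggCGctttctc
CpG dinucleotides numbered 24 in the MSX1 window, 28 in GBX2, 45 in EN2 and 7 in OTX2, against a median of 22 over the 68 members with a window and of 11 over all 35116 promoter windows of that table. The letters TAATTA, a homeodomain core, TGATNNAT, a PBX-HOX type motif, and TGACAG, a MEIS type motif, were searched on both strands. None of these motifs lay in the 4 windows shown, which says only that these letters are not there. They lay in 4.35%, 6.47% and 13.0% of all windows in the order named. These 68 are only a part of the 111 members, so the medians above are description, and no difference between members and other genes is drawn from them.

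Most members were silent in both groups. No read was counted in any of the 6 libraries for 59 of 111 members (53.2%), against 28.3% of all genes in the tables. These were 33 of 39 HOX genes and 26 of 72 other members. A further 5 members had counts in knockdown only, 18 were under 1 CPM in control and 29 were at 1 CPM or above in control. With the deposited depth, 3 counts in a library correspond to 0.314 to 0.620 CPM in knockdown and 0.433 to 0.551 CPM in control. For counting error only, a gene at a lower level could be missed in a single library.

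Among the HOX genes, only the neighbours HOXB2 (chr17:48540894-48544989, - strand) and HOXB3 (chr17:48548870-48604912, - strand) were at 1 CPM or above. Both are transcription factors of the embryonic hindbrain. All 11 HOXA genes were at 0 in every library, as were 7 of 10 HOXB, 8 of 9 HOXC and 7 of 9 HOXD genes. HOXB2 gave 78.5% to 84.3% of all HOX counts in knockdown libraries and 80.3% to 81.5% in control libraries. HOXB3 exons overlap those of HOXB4 on the same strand and of the antisense RNAs HOXB-AS1 and HOXB-AS3, and HOXB2 overlaps HOXB-AS1. The strand setting of the counting is not given in the sources used here, so reads of these neighbours may be divided between them.

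**Figure D1:**
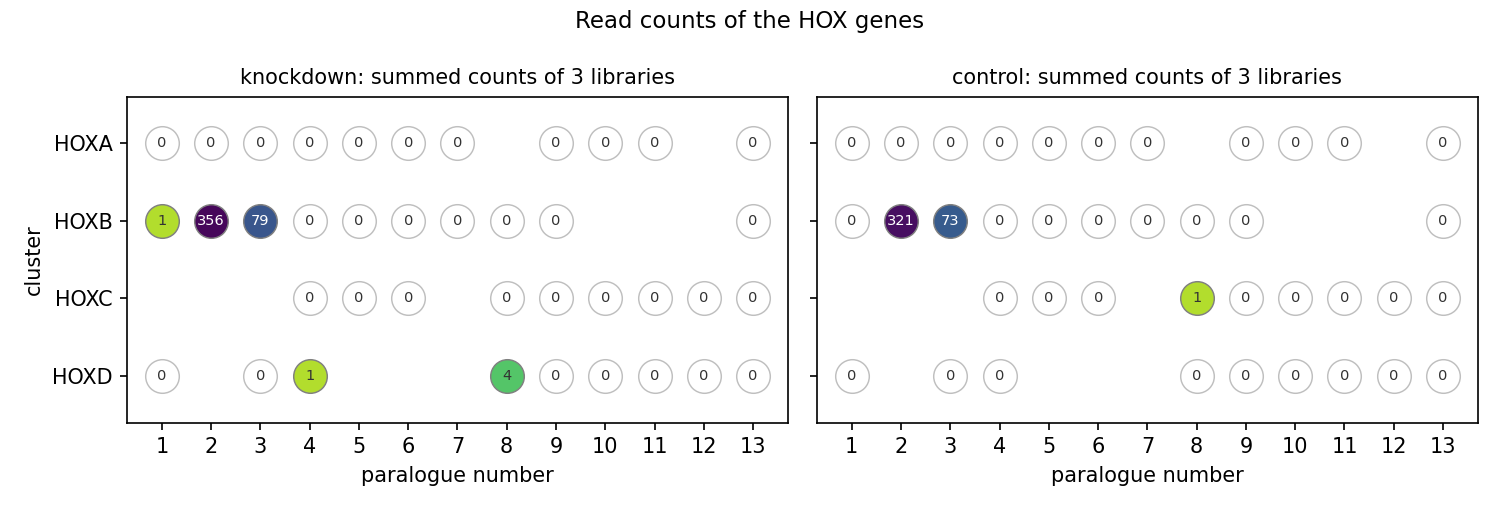
Read counts of the 39 HOX genes, by cluster (rows) and paralogue number (columns), summed over 3 knockdown libraries (left) and 3 control libraries (right); darker circles hold more counts and white circles hold 0. HOXB2 (356 counts in knockdown, 321 in control) and HOXB3 (79 and 73) hold nearly all HOX counts in both panels.

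HOXB2 had 76, 205 and 75 counts in knockdown libraries 1 to 3, against 92, 172 and 57 counts in control libraries 1 to 3. On the CPM scale that was 15.7, 27.7 and 7.86 in knockdown and 16.9, 26.6 and 8.22 in control, and the groups overlapped throughout. Library 2 was the highest and library 3 the lowest in both groups. HOXB2 averaged 17.1 ± 9.996 CPM in knockdown and 17.2 ± 9.19 CPM in control (SD, n = 3 each), with log2 differences of -0.10, 0.06 and -0.06 within the 3 same-numbered pairs. The log2 fold change was -0.02 (SE 0.50, adjusted p = 0.989) in edgeR's quasi-likelihood test over all 12937 tested genes. With the library number as a block it was -0.02 (SE 0.13, edgeR adjusted p = 0.982).

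HOXB3 had 14, 54 and 11 counts in knockdown, against 21, 38 and 14 counts in control. It too was highest in library 2 and lowest in library 3 of both groups, and the groups overlapped. HOXB3 averaged 3.78 ± 3.17 CPM in knockdown and 3.92 ± 1.93 CPM in control (SD, n = 3 each). The fold change on the log2 scale was -0.09 (SE 0.27, adjusted p = 0.853) in the edgeR fit with the block. The direction of both genes turned when single libraries were left out. The summed level of all 39 HOX genes was 18.8, 35.3 and 9.32 CPM in knockdown, against 20.8, 32.6 and 10.2 CPM in control.

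The libraries of a group differed more in HOXB2 than in most tested members. The highest library held 3.53 times the CPM of the lowest in knockdown and 3.23 times in control. The median of that ratio over the 21 tested members with at least 5 CPM in control was 1.34 in knockdown and 1.19 in control. In bulk RNA, fewer cells that express a gene and less RNA per cell cannot be told apart.

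The 37 HOX genes other than HOXB2 and HOXB3 had 6 counts in all in knockdown and 1 count in all in control. The ratio of their summed counts, corrected for library size, was 5.19 with an exact 95% interval of 0.630 to 239, for counting error only. HOXD8 had 1, 1 and 2 counts in knockdown and 0 in every control library, HOXB1 and HOXD4 had 1 count each in knockdown, and HOXC8 had 1 count in control. Their summed level was 0.275 CPM in knockdown and 0.0531 CPM in control, averages over 3 libraries each. With so few counts, most of them of HOXD8, this interval is too wide to tell whether these 37 genes gained reads. It also leaves out the variation between libraries.

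Over all members, 64 were at 0 in every control library, and 5 of them (7.81%) had a count in knockdown: HOXB1, HOXD4, HOXD8, EMX1 and SIX6. Of all genes, 8537 were at 0 in every control library, and 7498 of these were at 0 in all 6 libraries. The rest of the 8537 had a count in knockdown, a larger share than the 7.81% of the members. None of the 64 reached 3 counts in a knockdown library, which 0.644% of all genes at 0 in control did. In the other direction, 63 members were at 0 in every knockdown library, and 4 of them (6.35%) had 1 count each in control: HOXC8, NKX2-1, PITX3 and SIX3. The share over all genes in that direction was not computed. Of the 25 members with counts too low to test, 3 (12%) had a higher CPM in knockdown in all 3 pairs, against 7.69% of all such genes. These were HOXD8, OTX1 (1, 4 and 5 counts in knockdown, 0, 2 and 3 in control) and ALX4 (10, 12 and 14 counts in knockdown, 8, 6 and 7 in control). LHX6, with 4, 9 and 10 counts in knockdown and 11, 10 and 8 in control, was the 1 of the 25 (4%) that was lower in all 3 pairs. The share of all such genes that were lower was not computed.

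The members of highest level were mostly those of the midbrain-hindbrain boundary, the IRX genes and the PBX and MEIS cofactors. Levels between genes are compared per kb of exon of the GENCODE 29 basic models. GBX2, which acts on the hindbrain side of that boundary, had 112.5 CPM per kb in knockdown and 117.5 in control, and its lowest control library (105.8) lay above the highest control library of the next gene. EN2, an Engrailed factor of midbrain and cerebellum, had 70.7 CPM per kb in knockdown and 68.6 in control. IRX2, an Iroquois patterning factor, had 63.4 and 65.4, and PBX2, a three-amino-acid-loop (TALE) cofactor of HOX proteins, had 65.2 and 60.1, in knockdown and control. The control libraries of EN2, IRX2 and PBX2 overlapped one another. MEIS3 (39.8 CPM per kb in control), IRX1 (28.7), PBX3 (22.2), SIX5 (21.8) and PAX5 (13.4) were among those that followed. HOXB2 had 10.9 CPM per kb in knockdown and 11.04 in control. GBX2, PAX5, PAX6, PAX8, SIX5, IRX1, IRX3, MEIS1 and MEIS2 overlap a gene of the opposite strand in that annotation, so the limit on strand given for HOXB2 holds for them too.

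**Figure D2:**
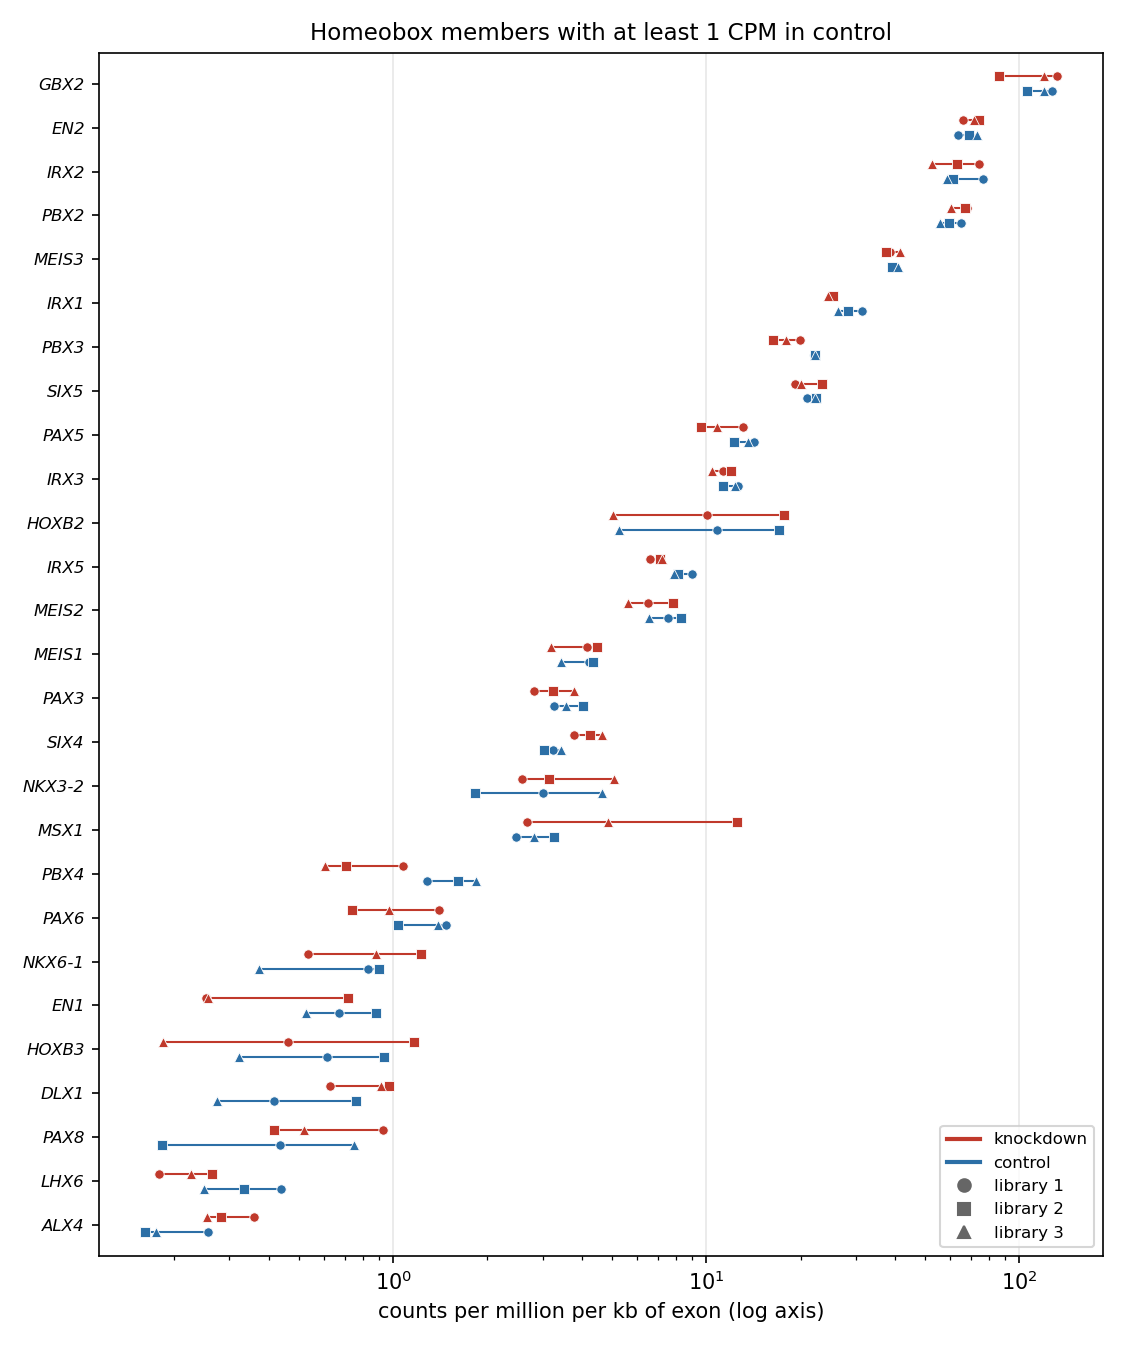
CPM per kb of exon (log axis) of 27 of the 29 members with at least 1 CPM in control; each point is a library, with knockdown (red) drawn above control (blue), and lines span the 3 libraries of a group. GBX2, EN2, IRX2 and PBX2 lead in both groups, and the libraries of HOXB2 span 3.53-fold in knockdown and 3.23-fold in control.

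Region by region, the forebrain list of 15 members was mostly silent. OTX2, EMX2, LHX8, DLX5 and DLX6 had no read, and the eye field and ventral forebrain genes SIX3 and NKX2-1 had 0 counts in knockdown and 1 count each in control. LHX2, a cortical LIM factor, had 13 counts in knockdown and 15 in control, and DLX2 had 6 and 9. PAX6, a factor of dorsal forebrain, eye and hindbrain progenitors, averaged 11.8 ± 3.83 CPM in knockdown and 14.7 ± 2.63 CPM in control (SD, n = 3 each). DLX1, a factor of forebrain interneurons, had 1.65, 2.57 and 2.41 CPM in knockdown and 1.10, 2.01 and 0.721 CPM in control, and the groups overlapped. PAX6 and DLX1 were the 2 of these 15 members that could be tested, and neither was called by either fit.

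Of the 9 members of the midbrain and isthmus list, 5 were at 1 CPM or above and could be tested, and none of the 5 was called. EN2 averaged 240 ± 14.4 CPM in knockdown and 233 ± 16.8 CPM in control (SD, n = 3 each), with an edgeR log2 fold change of 0.04 (SE 0.06, adjusted p = 0.699) in the fit with the block. GBX2 had 284.5, 186.4 and 257.9 CPM in knockdown and 274.9, 228.6 and 258.1 CPM in control. Its lowest value was that of knockdown library 2, and the groups overlapped. PAX5, which acts with EN2 at the boundary, had 113, 82.6 and 93.2 CPM in knockdown and 122.6, 105.7 and 116.9 CPM in control. It was lower in knockdown in all 3 pairs, while the groups overlapped, and it missed the threshold with the block (log2 fold change -0.27, SE 0.07, edgeR adjusted p = 0.0520). EN1, the other Engrailed gene, was at 0.620, 1.76 and 0.629 CPM in knockdown and 1.65, 2.16 and 1.30 CPM in control. PAX8, which is also known from thyroid and kidney, averaged 2.63 ± 1.15 CPM in knockdown and 1.93 ± 1.20 CPM in control (SD, n = 3 each). PAX2 and GBX1 had no read.

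Towards the dorsal side, PAX3, a factor of dorsal neural tube and neural crest, averaged 13.5 ± 2.02 CPM in knockdown and 14.9 ± 1.65 CPM in control (SD, n = 3 each). Its relative PAX7 had no read, nor had LHX9. ALX1, a craniofacial factor, had 7 counts in knockdown and 2 in control, and DLX3 had 3 and 1. On the ventral side, NKX6-1, a factor of ventral progenitors, averaged 2.72 ± 1.07 CPM in knockdown and 2.17 ± 0.886 CPM in control (SD, n = 3 each), and NKX2-2 had no read. NKX6-2 had 3 counts in knockdown and 5 in control. Of 7 members on the list headed ventral neural tube, 5 had no read: NKX2-2, NKX2-8, NKX6-3, NKX1-1 and NKX1-2. The same held for 3 of 4 LIM neuron members, LHX3 having 1 count in each group. Of 9 members known for non-neural organs, 1 was tested, NKX3-2, a skeletal and gut factor, with 10.1 ± 3.68 CPM in knockdown and 8.85 ± 3.96 CPM in control (SD, n = 3 each). PAX4 and the cardiac factor NKX2-5 had 8 and 6 counts in knockdown and 11 and 3 in control, and 5 of the 9 had no read.

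For change with the knockdown, 27 of the 111 members had enough counts to be tested. None was called at an adjusted p under 0.05 in the edgeR fit with group as the only term, as was none of the 12937 genes tested (0%). DESeq2 without the block called 142 genes and 0 members. At an unadjusted p under 0.05 stood 5 of the 27 (18.5%), MSX1, PBX3, PBX4 and SIX4 among them, against 14.4% of all tested genes. Libraries of the same number in both groups deviated together, and with the number as a block edgeR called 2 of 27 members. MSX1 was the 1 called higher (3.70% of the tested members, against 4.63% of all tested genes) and PBX3 the 1 called lower (3.70%, against 5.39% of all). The groups did not overlap for 6 of 27 members (22.2%), against 20.5% of all tested genes, and 13 (48.1%) moved 1 way in all 3 pairs, against 52.3% of all. The share of members called, apart or of 1 sign thus lay near the background in each count. With the block, the median log2 fold change was -0.05 over the 27 members and -0.0045 over all tested genes, and 23 of the 27 lay under 0.5 in size.

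**Figure D3:**
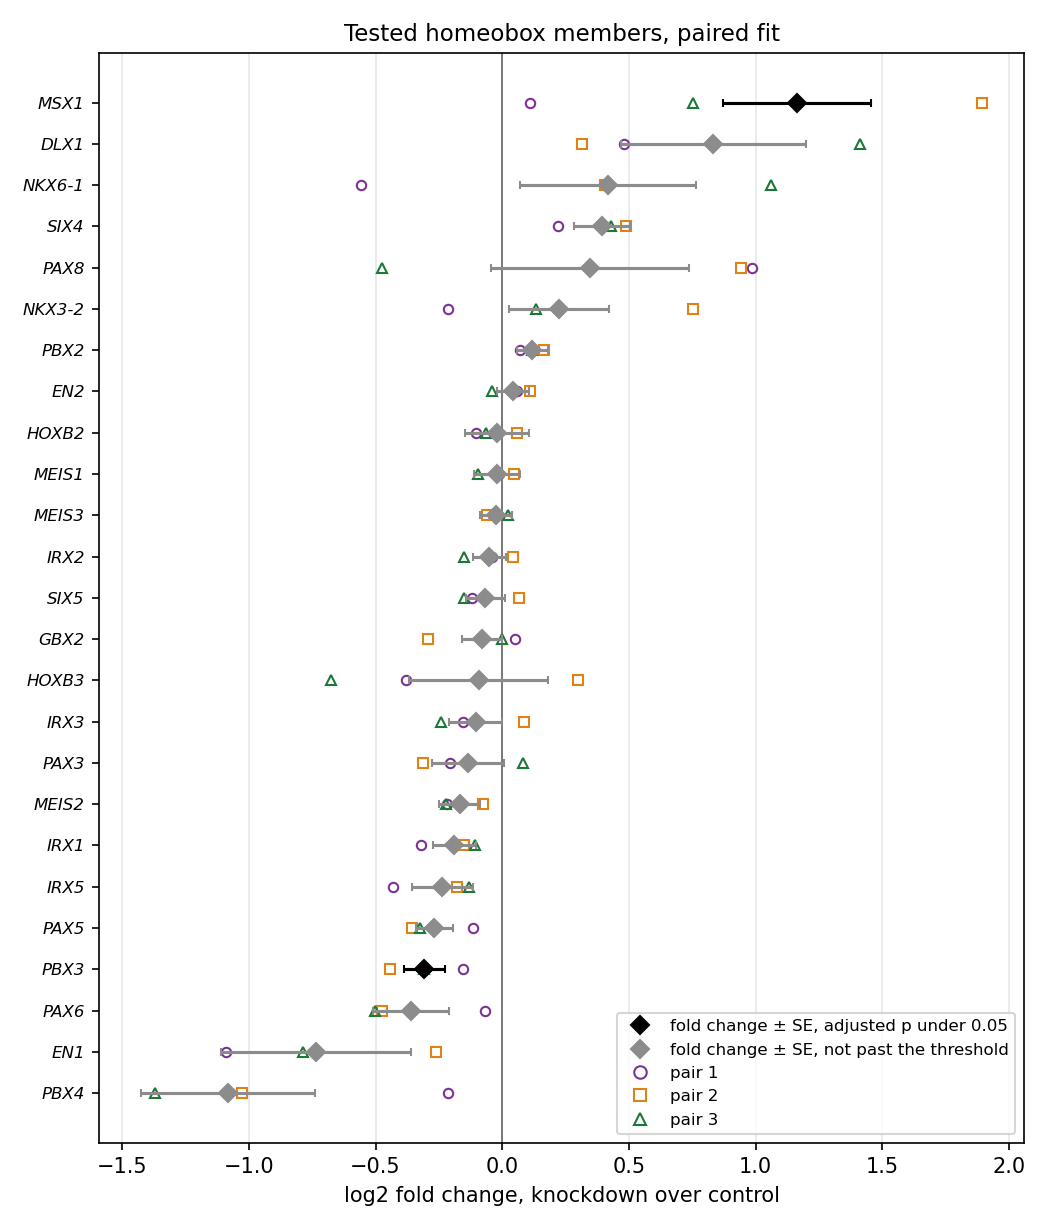
Log2 fold change, knockdown over control, of 25 of the 27 tested members in the edgeR fit with the library number as a block (diamonds, bars are SE; black where adjusted p was under 0.05), with the difference within each pair as open symbols. MSX1 (1.16) and PBX3 (-0.31) are black, and most others lie within 0.5 of 0.

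MSX1 (chr4:4859666-4863936, + strand), a homeobox repressor of the dorsal neural tube, neural crest and limb, had 25, 180 and 90 counts in knockdown and 26, 41 and 38 counts in control. On the CPM scale it stood at 5.17, 24.3 and 9.43 in knockdown, against 4.78, 6.34 and 5.48 in control. Knockdown library 2 was far above the rest, library 3 moderately so, and knockdown library 1 lay among the controls, so the groups overlapped. The log2 differences within the pairs were 0.11, 1.89 and 0.75. Without the block the log2 fold change was 1.25 (SE 0.50, edgeR adjusted p = 0.311), and with it 1.16 (SE 0.29, edgeR adjusted p = 0.0425), 2.24-fold. Without pair 2, which holds the knockdown library that stood apart, it was 0.56 (edgeR adjusted p = 0.0899) in the fit with the block, and DESeq2 with the block gave 1.02 (adjusted p = 0.0770). MSX2, its paralogue, had 2, 9 and 0 counts in knockdown and 1, 5 and 1 in control.

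The summed level of 10 markers of neural crest and mesenchyme was 1769, 2320 and 1649 CPM in knockdown, against 1577, 1610 and 1326 CPM in control. The sum was highest in knockdown library 2, where COL3A1 alone gave 1680 CPM of it. TFAP2A, SNAI2, TWIST1, COL1A1, PDGFRA and PRRX1 were also each highest in that library. PDGFRA was at 16.7, 36.5 and 10.9 CPM in knockdown libraries 1 to 3, and at 13.0, 13.6 and 8.66 CPM in control. THY1 did not follow, at 175 CPM in knockdown library 2 and 199.9 CPM in knockdown library 3. The defining crest genes SOX10 and FOXD3 were at 0 in all 6 libraries. Of the 10 markers 1, the collagen COL3A1, was called higher with the block (log2 fold change 0.39, SE 0.09, edgeR adjusted p = 0.0322). How far the MSX1 value goes with these markers or with library 2 was not tested beyond leaving out pair 2.

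**Figure D4:**
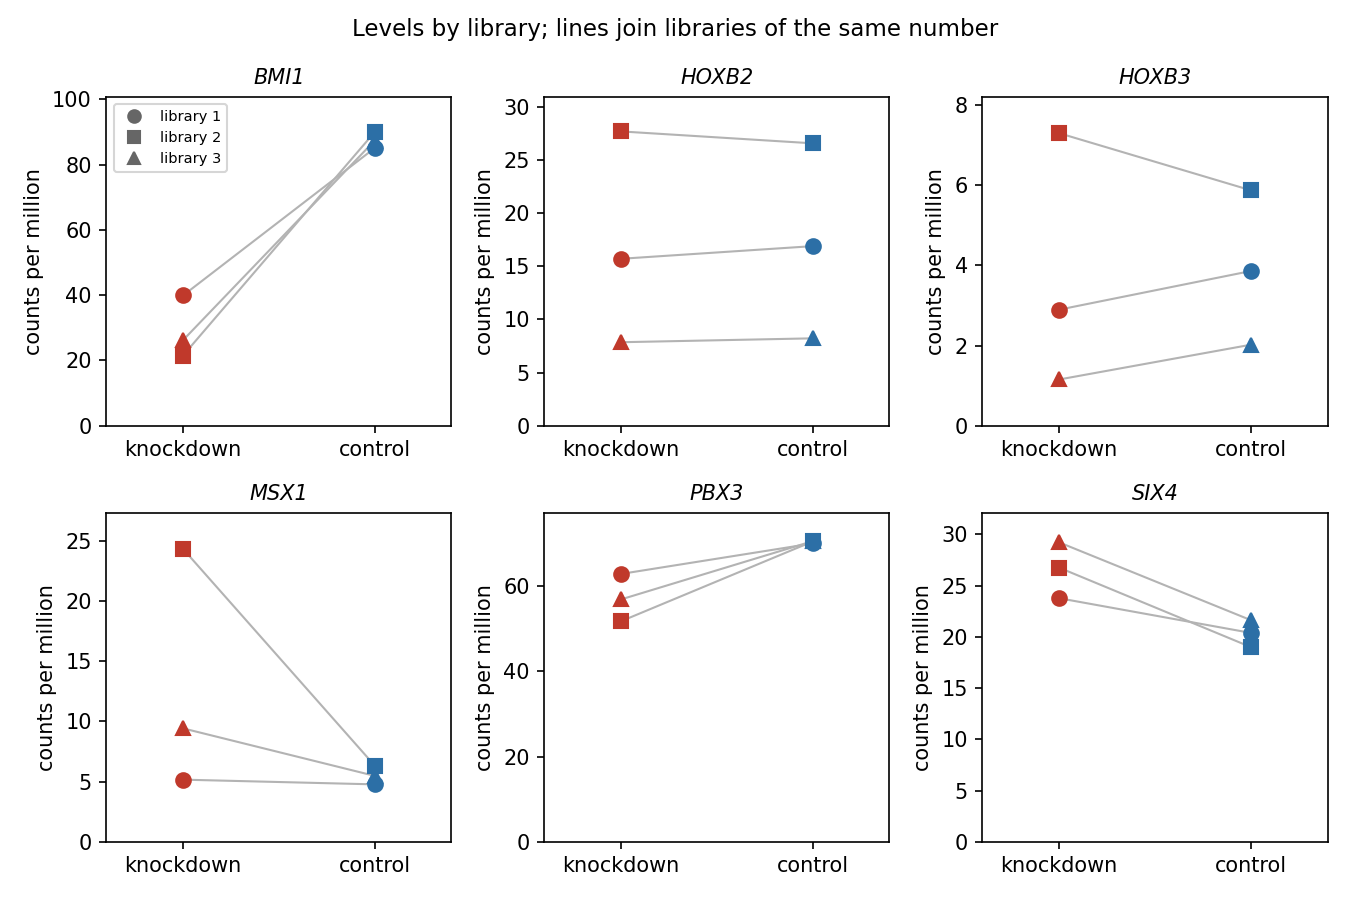
CPM of BMI1 and 5 members in each library (symbol shape gives the library number), knockdown on the left and control on the right of each panel, with lines joining libraries of the same number. BMI1 and PBX3 are lower in all 3 knockdown libraries, and MSX1 is highest in knockdown library 2 (24.3 CPM). HOXB2 and HOXB3 are highest in library 2 and lowest in library 3 of both groups.

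PBX3 (chr9:125747345-125967377, + strand), a TALE cofactor that binds DNA together with HOX proteins, had 62.9, 51.8 and 56.9 CPM in knockdown and 70.0, 70.5 and 70.6 CPM in control. All 3 knockdown libraries lay below all 3 controls, which differed little among themselves. The log2 fold change was -0.30 (SE 0.10, edgeR adjusted p = 0.265) without the block and -0.31 (SE 0.08, edgeR adjusted p = 0.0498) with it, a level 0.808 times that of control. This adjusted p lay at the threshold: with RLE scaling it was 0.0506, with DESeq2 0.269 and without pair 3 0.214, all with the block and with a negative fold change.

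Of the 13 TALE and IRX members, 11 were tested, and PBX3 was the 1 called with the block, against 5.39% of all tested genes called lower and 4.63% called higher. PBX4, a low-level PBX gene, had 1.86, 1.22 and 1.05 CPM in knockdown, against 2.21, 2.78 and 3.17 CPM in control, with no overlap (log2 fold change -1.08, SE 0.34, edgeR adjusted p = 0.0785 with the block). PBX2 averaged 209 ± 13.5 CPM in knockdown and 193 ± 15.0 CPM in control (SD, n = 3 each). MEIS3 averaged 117 ± 6.28 CPM in knockdown and 119 ± 2.79 CPM in control (SD, n = 3 each). MEIS1 averaged 34.2 ± 5.76 CPM in knockdown and 34.6 ± 4.27 CPM in control, and MEIS2 43.9 ± 7.40 CPM and 49.2 ± 5.66 CPM (SD, n = 3 each).

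The Iroquois genes lie in a pair of clusters, and in each the same genes were expressed in both groups. On chromosome 5, IRX2 and IRX1 had 4501 and 1008 counts in knockdown and 4125 and 996 in control, while their neighbour IRX4 had 2 counts in knockdown and 1 in control. On chromosome 16, IRX3 and IRX5 had 631 and 393 counts in knockdown and 590 and 399 in control, while IRX6 had 3 in knockdown and 2 in control. IRX1 had 46.5, 47.3 and 45.4 CPM in knockdown and 58.2, 52.6 and 48.9 CPM in control, and IRX5 had 16.96, 18.2 and 18.4 CPM in knockdown and 23.0, 20.7 and 20.2 CPM in control. Neither overlapped between groups, and neither passed the threshold (edgeR adjusted p = 0.176 for IRX1 and 0.231 for IRX5 with the block).

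SIX4, a factor of placodes and muscle on chromosome 14, had 23.8, 26.8 and 29.2 CPM in knockdown and 20.4, 19.0 and 21.6 CPM in control. All 3 knockdown libraries lay above all 3 controls. The log2 fold change was 0.39 (SE 0.11, edgeR adjusted p = 0.0568 with the block), and it did not pass the threshold in either fit. SIX6 had 1 count in knockdown and 0 in control, and SIX2 had 4 counts in knockdown and 2 in control. PITX1 and DLX4 had no read. SIX5 averaged 74.3 ± 7.79 CPM in knockdown and 77.6 ± 2.80 CPM in control (SD, n = 3 each).

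Homeobox genes outside the member families were read from a list of 89 genes in the tables, of which 32 were tested and 35 had no read. With the block 1 of the 32 was called, against 4.63% of all tested genes called higher and 5.39% called lower. It was SATB1, a chromatin organiser, at 17.8 ± 1.56 CPM in knockdown and 10.4 ± 0.737 CPM in control (SD, n = 3 each; log2 fold change 0.77, SE 0.14, edgeR adjusted p = 0.0252). It was higher in all 3 pairs, and was not called without the block (edgeR adjusted p = 0.258). ZFHX4 (log2 fold change 0.54, adjusted p = 0.0532), POU2F1 (-0.22, 0.0603), PROX1 (1.03, 0.0665), PKNOX2 (-0.19, 0.108) and ZEB2 (-0.15, 0.149) had the next smallest p in edgeR with the block and missed the threshold. Of 26 antisense and host RNAs beside members, 20 had no read and the 2 tested, HOXB-AS1 (36 counts in knockdown, 34 in control) and PAX8-AS1, were not called.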

How the data were processed

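Total RNA of AF22 cells was made into directional libraries, per the labels' protocols. The authors deposited 1 table of whole-number read counts per library, 26485 genes each. Per the submitters' processing notes, the tools included Trim Galore 0.6.6, STAR 2.7.10a and bedtools, and the build was hg38. How reads were assigned to genes, including strand, is not given in the sources used here. Groups and library numbers come from the sample titles.

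Members were taken by symbol. Members, lists, tests and the rule for named genes were chosen with earlier results of these data known. Named genes were members called by either fit, the 10 of highest control level per kb, HOX genes of at least 0.5 CPM, the 2 tested members of smallest p per regional list, the 6 of smallest p among other homeobox genes, and regional markers. Low-count members, IRX3, IRX5, MSX2 and others given by counts were added after their values were seen. Some members, also among those the rule names, are not reported here.

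Counts were tested with edgeR 4.0.16 (R 4.3.3; filterByExpr, TMM, quasi-likelihood test, Benjamini-Hochberg over 12937 genes, threshold 0.05) with group as the only term. CPM uses TMM-scaled totals; differences within pairs use log2 CPM with a prior count of 2. SE is the size of the log2 fold change over the square root of F. The procedure was tested on simulated data. Across genes, libraries of the same number deviated from their group means together: the correlations were 0.563, 0.467 and 0.535, all above 0.1. Those of other combinations were -0.342 to -0.107. Deviations from a group mean cancel out within the group, so these negative values follow in part from the positive ones and add no separate support. From the same-number correlations, the number was treated as a pairing, which rests on these data and not on the labels. The fit with the number as a block stands beside the unpaired one. Alternatives were RLE or total count scaling, other filters, DESeq2 1.42.0, limma 3.58.1 voom and leaving out libraries or pairs. Exon lengths come from GENCODE 29 (111 of 111 members matched). Of the lists, 89 of 90 other homeobox genes and 26 of 32 antisense and host RNAs were found.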

Additional observations from a re-analysis of the deposited data

How the results depend on the processing

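Of all genes, the fit without the block called 0 (2 with no filter, 142 with DESeq2, 0 to 665 when single libraries were left out), and the replicate block called 1296. With the replicate block the count was 1335 with RLE scaling, 1283 with total count, 2171 with no filter, 590 with DESeq2, and 1320, 2296 and 912 without pairs 1, 2 and 3. Of the members, 0 were called without the block (0 to 1 when single libraries were left out, the 1 being MSX1 without knockdown library 1) and 2 with the replicate block. With it, RLE scaling called 1 (MSX1), total count 3 (MSX1, PAX5, PBX3), no filter 4 (these and SIX4) and DESeq2 0. Leaving out pair 1 gave 4 (MSX1, PAX5, PBX3, PBX4), pair 2 gave 4 (PAX5, PBX3 and SIX4 among them) and pair 3 gave 1 (MSX1). The cause of these shifts was not tested. Of 518 alternative log2 fold changes of 26 named genes, 19 turned direction, over 7 genes. When single libraries were left out, the values ran from -0.187 to 0.0947 for GBX2, -0.00476 to 0.0938 for EN2, -0.170 to 0.0812 for IRX2, -0.0685 to 0.0101 for MEIS3, -0.607 to 0.451 for HOXB2, -1.08 to 0.432 for HOXB3 and -0.139 to 0.609 for NKX3-2. With the replicate block and without pair 1 HOXB2 was at 0.0197 and HOXB3 at 0.0143. Without pair 2 GBX2 was at 0.0202, and without pair 3 IRX2 was at 0.000604 and HOXB3 at 0.0676. The log2 ratio of the summed HOX level was -0.00464 and ran from -0.592 to 0.447 without single libraries. Members at or above 1 CPM in control numbered 29, 31 at 0.5 CPM and 24 at 2 CPM. With 3 libraries a group and at most 9640349 counts each, members at a few counts could not be tested.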
